A study of Caenorhabditis elegans with 8 samples.

Results

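The 6 arrays, of 8, that carry hpl-2 in their genotype label were compared as 1 side with the 2 arrays labelled hpl-1 his-24. The hpl-2 side holds 3 genotypes of 2 arrays each, given equal weight: the triple mutant, labelled as carrying all 3 deletions, hpl-1; hpl-2, and hpl-2; his-24. All strains are in the N2 background. With its array results the study names the deletion alleles hpl-1(tm1624) and his-24(ok1024), both on chromosome X, and hpl-2(tm1489) on chromosome III, in the combinations labelled. For hpl-1; hpl-2 it names another hpl-1 allele where it gives sterility and vulval phenotypes. Each array holds RNA of 80 to 100 whole animals raised at 21 °C. Their stage is L4 larvae in the methods of the study and L4 and young adults in the labels. A gene belongs to the set described here when its 6 values on the hpl-2 arrays all lie above, or all lie below, both values on arrays labelled hpl-1 his-24. Of 16487 genes tested, 6921 met this rule, which is 42% of them. No wild-type array was analysed here, so higher and lower always mean relative to the arrays labelled hpl-1 his-24, and which of the 2 sides departs from wild type cannot be told from these values.

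HPL-1 and HPL-2 are the nematode members of the heterochromatin protein 1 (HP1) family, which bind methylated histone H3 and help to keep chromatin in a closed state. HIS-24 is a linker histone of the H1 family, which binds DNA between nucleosomes. HPL-2 works together with the synMuv B repressors, a group of chromatin and transcription factors known for keeping vulval fates and germ line genes off in cells where they do not belong. All hpl-2 arrays share the hpl-2 deletion but no state of hpl-1 or his-24, so the comparison asks which transcripts go with the hpl-2 label whatever the second deletion.

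RNA of 1 sample was hybridized per array, and levels are given as log2 signal relative to the 75th percentile of the array. The share of probes well above background was 77.3% to 84.7% per array. Replicates of a genotype correlated across genes with r between 0.991 and 0.997. The difference between replicates had an SD of 0.54 for the hpl-2; his-24 pair, against 0.27 to 0.31 for the other pairs. Both hpl-2; his-24 arrays lay on a slide of their own that was scanned on another day than the other slides, so slide, scan day and this genotype cannot be told apart. Counts of calls over all genes or a list that move by 1.5 times or more without this genotype are therefore also given without it. That leaves arrays of 1 scan day. No slide held both hpl-2 arrays and arrays labelled hpl-1 his-24, so slide and side cannot be told apart for any gene below. In whole animals, fewer cells of a type and less RNA per cell cannot be told apart, for any gene below.

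The probes of the deleted genes were looked at first, since they check the labels. hpl-2 is represented by a pair of probes. The probe for K01G5.2a read 0.43 and 0.52 on arrays labelled hpl-1 his-24, -1.22 and -1.12 on hpl-2; his-24, -0.85 and -0.78 on hpl-1; hpl-2, and -1.08 and -1.09 on the arrays labelled triple mutant. All 6 hpl-2 arrays were lower, by 1.49 on the log2 scale (SE 0.07, adjusted p = 1.9e-05), and the probe was still well above background there. The probe for K01G5.2b was lower on all 6 by a smaller amount (log2 difference -0.90, SE 0.09, adjusted p = 0.00033). The his-24 probe (M163.3) was well above background only on the hpl-1; hpl-2 arrays, at 0.31 and 0.46, as their labels imply. The hpl-1 probe (K08H2.6) was dark only on the hpl-1; hpl-2 arrays. It read -0.36 and -0.30 on arrays labelled hpl-1 his-24 and -0.60 and -0.53 on those labelled triple mutant, close to the -0.49 and -0.65 of hpl-2; his-24, a genotype with no hpl-1 deletion. The hpl-1 probe thus did not show the deletion named in the label of 4 arrays. By contrast, the hpl-2 and his-24 probes were lower or dark on every array labelled with their deletion. Whether the hpl-1 probe lies within the deletion was not tested, so a wrong label and a probe outside the deletion cannot be told apart. Every direction below rests on arrays named by label, those labelled triple mutant included. Both X-linked genes pass the threshold of the comparison only through the hpl-1; hpl-2 arrays and are left aside.

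**Figure D1:**
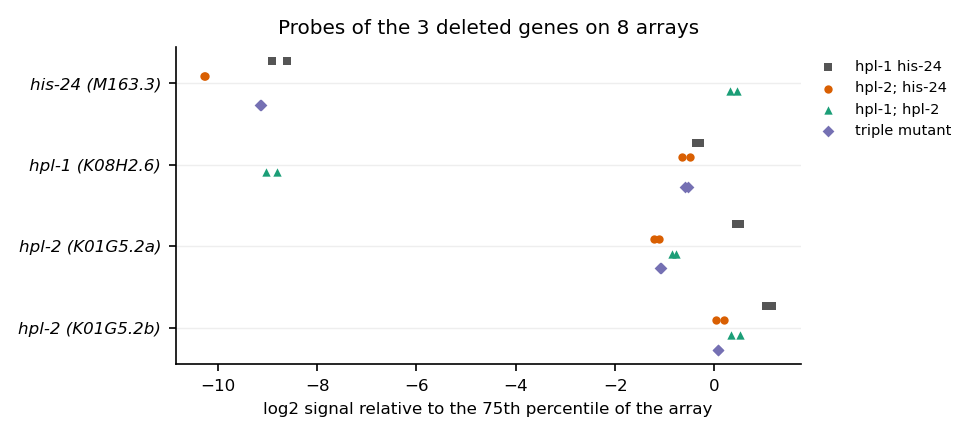
Log2 signal relative to the 75th percentile of the array (x axis) for the probes of the 3 deleted genes (rows), with 1 point per array and 2 arrays per genotype. The hpl-2 probe K01G5.2a lies at 0.43 and 0.52 on arrays labelled hpl-1 his-24 and between -1.22 and -0.78 on the other 6, and the hpl-1 probe is dark only on the hpl-1; hpl-2 arrays.

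The 6 hpl-2 values lay above both values of the arrays labelled hpl-1 his-24 in 3753 genes (22.8%) and below them in 3168 genes (19.2%). Most of these differences were small. The median log2 difference was 0.69 among the higher genes, a fold of 1.61, and -0.80 among the lower genes, a fold of 1.75, beside a median of 0.02 over all genes tested. The gap between the nearest values of the 2 sides exceeded 1 log2 unit in 648 higher and 357 lower genes and was under 0.1 in 915 and 615. At the edge of the rule, mct-5 and Y48G10A.1 lay just inside with gaps of 1.5e-05 and 0.00051 log2 units, and T23F2.5 and nhr-206 just outside, with gaps of -2.3e-05 and -2.9e-05.

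A gene was called when limma's adjusted p was below 0.05 and the log2 difference beyond 1.5. This held for 814 genes higher on the hpl-2 arrays (4.94% of those tested) and 649 lower (3.94%). Of them, 783 higher and 559 lower genes also had no overlap between the sides, whereas 31 and 90 were called although 1 or more hpl-2 arrays overlapped the other side. The called higher genes were mostly dim on arrays labelled hpl-1 his-24, where 309 were not well above background on either array. A gene was tested when both arrays of some genotype were well above background, so these 309 were tested only through hpl-2 arrays. The same holds for 78 further called higher genes that were well above background on only 1 array labelled hpl-1 his-24. The filter thus adds to the higher count. Of the called lower genes, 22 were not well above background on any hpl-2 array. On arrays labelled hpl-1 his-24 the median level was -6.26 for the called higher genes without overlap, -1.49 for the called lower ones and -1.84 for all genes. Where all 8 arrays were well above background, 427 genes were called higher and 457 lower. Without hpl-2; his-24 the counts were 783 higher and 419 lower, and with the 6 hpl-2 arrays as a single group, so that the spread between genotypes counts as error, 712 and 298.

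**Figure D2:**
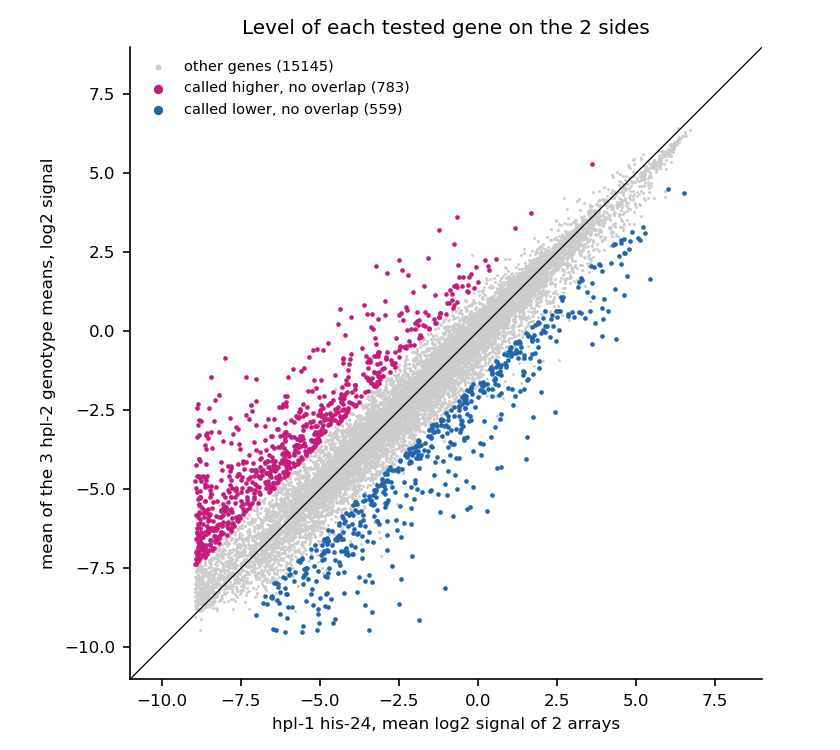
Mean log2 signal on arrays labelled hpl-1 his-24 (x axis) against the mean of the 3 hpl-2 genotype means (y axis), 1 point per gene, with the line of equal level. The 783 genes called higher without overlap lie mostly at the dim end of the x axis, with a median of -6.26, and the 559 called lower are spread over the whole range, with a median of -1.49.

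The genes described first are those with the widest gaps among the called genes that were well above background on all 8 arrays. F57G4.1 (chromosome V) read -4.38 and -4.36 on arrays labelled hpl-1 his-24, 0.56 and 0.84 on hpl-2; his-24, 1.06 and 1.08 on hpl-1; hpl-2, and 0.36 and 0.39 on the labelled triple mutant. The 6 hpl-2 values lie within 1 log2 unit of each other and 4.72 above the nearest value of the other side (33.9-fold, log2 difference 5.08, SE 0.09, adjusted p = 1.0e-06). F54F7.6 (chromosome X) read -1.29 and -1.18 against 3.50 and 3.51, 2.87 and 2.95, and 3.24 and 3.26 in the same order, a fold of 22.0 (SE 0.07 on the log2 scale, adjusted p = 1.0e-06). T21C12.4 and T21C12.7 on chromosome III were 21.6-fold and 20.3-fold higher, and F15D4.5 and C38D9.2 were higher by 4.75 on the log2 scale each (SE 0.09 and 0.11). The files give no function for these genes.

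Among the other genes with the widest gaps were members of large receptor and kinase families. The chemoreceptor gene srx-70 read -5.22 and -5.23 on arrays labelled hpl-1 his-24 and between -1.12 and -0.16 on the 6 hpl-2 arrays (25.2-fold). nekl-1, a NIMA-related kinase, read -3.48 and -3.52 against values of 0.38 to 0.88 (16.6-fold). gcy-19, a receptor-type guanylyl cyclase, read -3.87 and -4.13 against -0.04 to 1.26 (21.9-fold), with its highest values in hpl-2; his-24. The F-box gene fbxa-43 was 23.7-fold higher, droe-8 20.5-fold and C53A5.9 20.4-fold. For genes that were not well above background on arrays labelled hpl-1 his-24, only a lower bound of the fold can be given, taken against the dimmest signal that still counts as detected. The largest bounds were at least 53.3-fold for the chemoreceptor gene sru-47, at least 35.2-fold for irld-60 and at least 35.1-fold for Y39G8B.5.

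**Figure D3:**
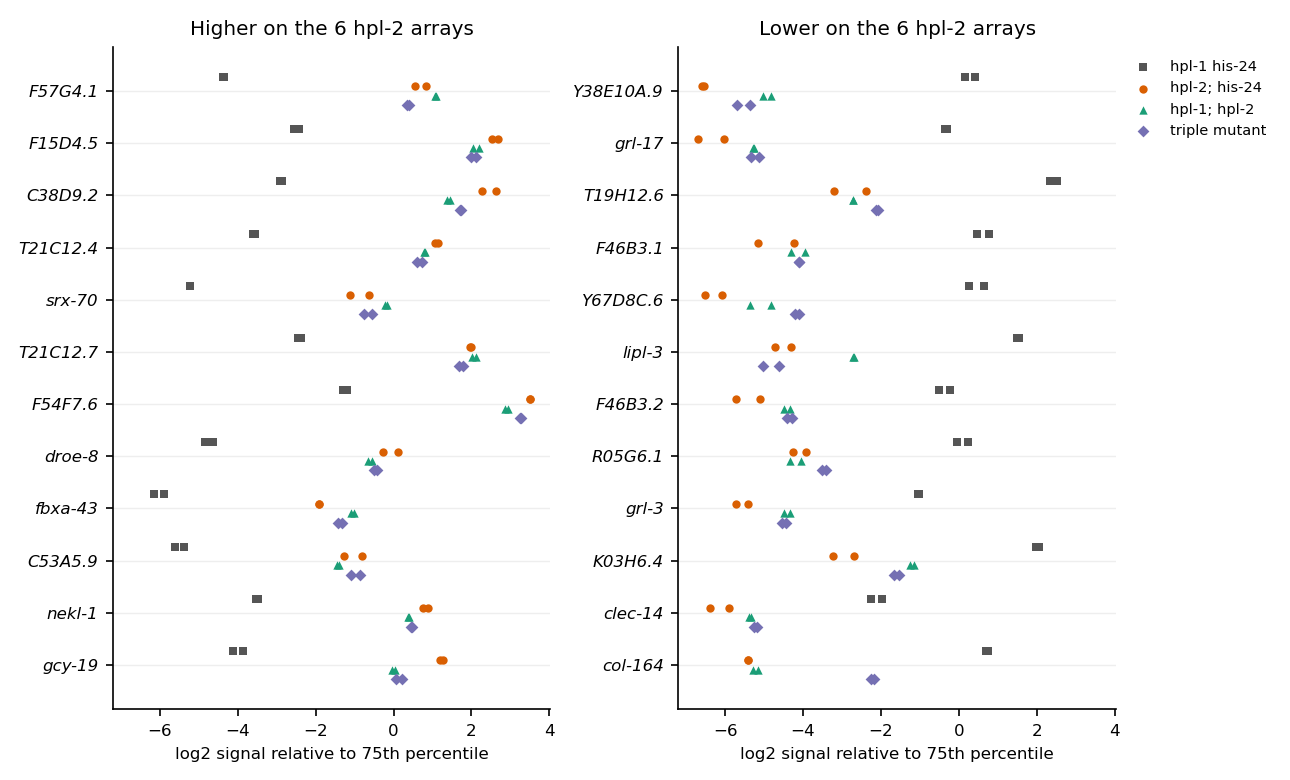
Log2 signal relative to the 75th percentile of the array (x axis) for the 12 called genes with the widest gap in each direction that were well above background on all 8 arrays (rows), with 1 point per array. In every row the 6 hpl-2 arrays stand apart from the arrays labelled hpl-1 his-24, by 3.83 (gcy-19) to 4.72 (F57G4.1) log2 units in the left panel and by 2.9 (col-164) to 4.98 (Y38E10A.9) in the right one.

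Among the lists with at least 15 tested genes, the pals genes had the largest share of higher calls. They are known as core members of the intracellular pathogen response, a set of nematode genes switched on by microsporidia and by the Orsay virus. Of 29 pals genes on the array 28 were tested, 17 were called higher (60.7%, beside 4.94% of all genes) and 1, pals-16, lower. Among the 28, 6 were not well above background on either array labelled hpl-1 his-24 and were tested only through hpl-2 arrays. The same holds for any pals gene well above background on only 1 of these arrays. The 6 hpl-2 values lay above the other side in 19 (67.9%, beside 22.8% of all genes) and below in 2 (7.14%, beside 19.2%). The median log2 difference of the list was 2.26. The share did not come from dim genes alone, since 13 of the 21 pals genes well above background on all 8 arrays were called higher, with a median of 2.24, and 17 were called higher and 0 lower without hpl-2; his-24.

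pals-7 read -5.54 and -6.13 on arrays labelled hpl-1 his-24, -0.66 and -0.35 on hpl-2; his-24, -2.08 and -2.0 on hpl-1; hpl-2, and -1.07 and -0.98 on the labelled triple mutant (log2 difference 4.65, SE 0.17, adjusted p = 5.5e-06). No value of the 2 sides overlapped, and hpl-1; hpl-2 had the lowest values of the 3 hpl-2 genotypes. pals-33 read -3.28 and -3.37 against 0.23 and 0.41, -0.21 and -0.25, and 0.15 and 0.18 (10.6-fold, SE 0.08, adjusted p = 1.7e-06). pals-28 and pals-5, a gene widely used as a reporter of the response, were not detected above background on arrays labelled hpl-1 his-24 and were at least 9.96-fold and 7.97-fold higher. pals-22 and pals-25, known as a pair of opposing regulators of the response, differed little. pals-22 read -1.81 and -1.80 against values of -2.01 to -1.64 (log2 difference -0.04, SE 0.08, adjusted p = 0.72). pals-25 had a log2 difference of 0.08 (SE 0.10, adjusted p = 0.51), and in both genes the sides overlapped.

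Other genes of the intracellular pathogen response were looked up after the pals values were seen, in a list that includes genes already known here to be high. Of 8 tested, 4 were called higher (50%, beside 4.94% of all genes), all of them from the F26F2 cluster on chromosome V. F26F2.1 read -6.13 and -6.07 on arrays labelled hpl-1 his-24, -0.88 and -0.15 on hpl-2; his-24, -3.0 and -3.06 on hpl-1; hpl-2, and -2.75 and -2.40 on the labelled triple mutant (16.7-fold, SE 0.20). F26F2.3 was at least 33.9-fold higher and F26F2.4 higher by at least 4.58 on the log2 scale, with their highest values in hpl-2; his-24. cul-6, a cullin of the ubiquitin ligase machinery, read -1.88 and -1.98 against -1.24 to -0.32, which is above without overlap but under the limit of fold (log2 difference 1.06, SE 0.08). skr-3 and skr-4, relatives of the Skp1 adaptor, overlapped between the sides (log2 differences 0.10 and 0.17, adjusted p = 0.52 and 0.28).

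F-box proteins bind Skp1 relatives and select the proteins that SCF ubiquitin ligases mark, and proteins with a MATH domain serve cullin ligases in a similar way. Of 296 F-box genes of the fbxa, fbxb and fbxc families tested, 88 were called higher (29.7%) and 6 lower (2.03%), or 84 and 3 without hpl-2; his-24. All 6 hpl-2 values lay above the other side in 163 (55.1%, beside 22.8% of all genes) and below in 27 (9.12%, beside 19.2%). Many of these genes were dim, and 45 of the 296 were not well above background on either array labelled hpl-1 his-24. Those 45, and any well above background on only 1 array labelled hpl-1 his-24, were tested only through hpl-2 arrays. Of the 211 well above background on all 8 arrays, 41 were called higher and 3 lower. The count of higher calls fell to 20 with limma's normexp background correction and to 21 with the deposited table of quantile-normalized values, whose values follow the brightness of the spots without background subtraction. fbxa-43 is the F-box gene with the clearest values, at -6.14 and -5.89 against -1.91 to -1.02. fbxa-75 was at least 16.8-fold higher, fbxa-174 at least 4.05-fold and fbxa-171 at least 3.1-fold.

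Of 78 MATH domain genes, 13 were called higher (16.7%, beside 4.94% of all genes) and 0 lower. Without overlap, 35 lay above (44.9%, beside 22.8% of all genes) and 9 below (11.5%, beside 19.2%). Of the 65 that were well above background on all 8 arrays, 5 were called higher, with a median log2 difference of 0.19. math-5, math-6 and math-16 belong to 1 cluster on chromosome II, and math-5 was higher by at least 3.81 on the log2 scale. math-6 read -7.28 and -6.74 on arrays labelled hpl-1 his-24, of which only 1 was well above background, and -3.67 to -2.47 on the 6 hpl-2 arrays. The related gene bath-45 read -3.25 and -3.24 against -0.69 to 0.35 (log2 difference 3.05, SE 0.10). The normexp correction left 7 MATH genes called higher. Members of these families resemble each other, and probes can pick up the transcript of a close relative.

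Chemoreceptor genes, which encode the large families of odorant receptors of sensory neurons, were mostly too dim to test: 339 of 1299 passed the filter. Of these, 53 were called higher (15.6%) and 15 lower (4.42%), beside 4.94% and 3.94% of all genes. Without overlap, 90 lay above (26.5%) and 58 below (17.1%), near the 22.8% and 19.2% of all genes. Of the 100 that were well above background on all 8 arrays, 10 were called higher and 3 lower. sri-31 was at least 18.0-fold higher and srd-60 at least 10.4-fold. A gene that passed the filter only through the hpl-2 arrays had to be higher there, so the count of higher calls carries the filter with it, and it fell to 19 with the normexp correction.

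**Figure D4:**
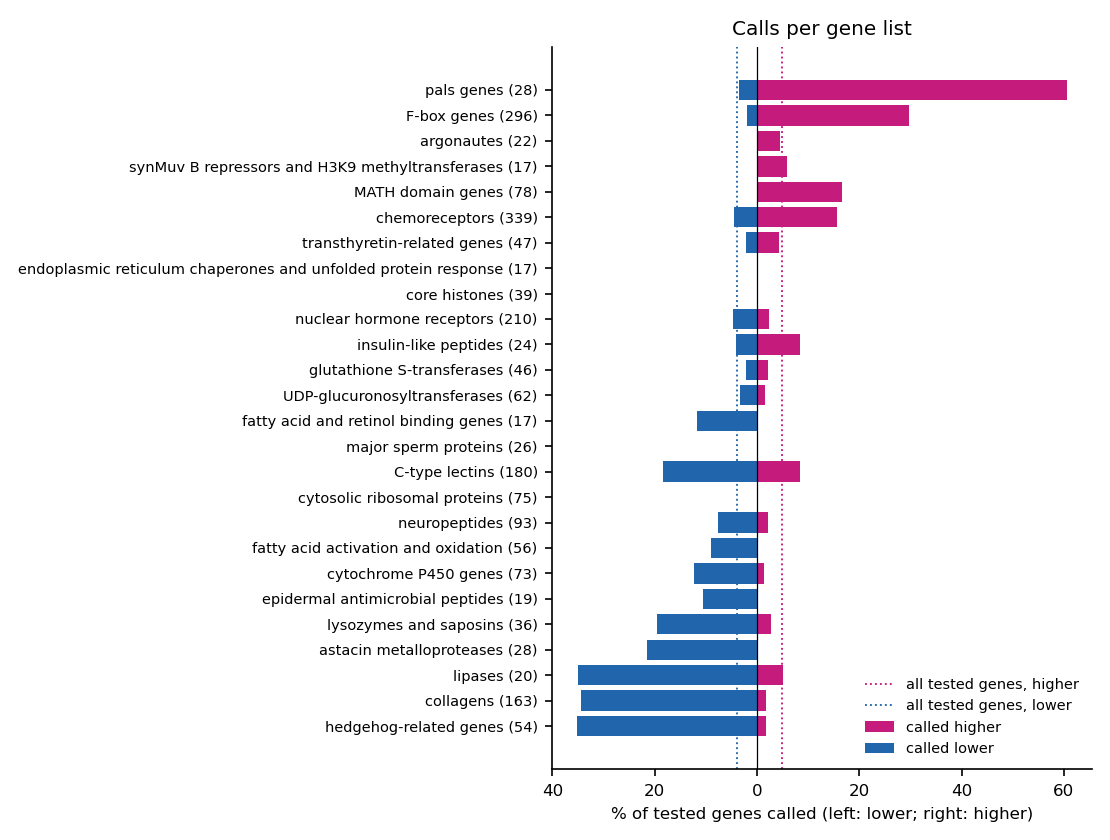
Share of the tested genes of each list that were called lower (left) or higher (right) on the hpl-2 arrays, in percent, for lists with at least 15 tested genes, ordered by median log2 difference, with the number tested in brackets and the shares over all tested genes, 4.94% higher and 3.94% lower, as dotted lines. The pals genes have the largest share called higher, 60.7%, and the hedgehog-related genes, the lipases and the collagens the largest shares called lower.

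The small heat shock genes of the hsp-16 family, which encode chaperones induced by heat and other stress, were higher in all members. The 6 hpl-2 values of all 6 genes lay above the other side (100%, beside 22.8% of all genes), and 4 genes were called (66.7%, beside 4.94%). hsp-16.2 read -1.76 and -1.56 on arrays labelled hpl-1 his-24, 0.71 and 0.62 on hpl-2; his-24, -0.29 and -0.12 on hpl-1; hpl-2, and 1.43 and 1.37 on the labelled triple mutant (4.85-fold, log2 difference 2.28, SE 0.09, adjusted p = 8.7e-06). hsp-16.41, hsp-16.48 and hsp-16.1 were 4.51-fold, 4.11-fold and 3.82-fold higher. In each of the 4 genes hpl-1; hpl-2 was the lowest of the 3 hpl-2 genotypes. Neighbouring hsp-16 genes are near copies of each other, so their probes may not be independent.

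The heat-inducible hsp-70 gene was called higher at 2.93-fold, but this rested on hpl-2; his-24 (log2 difference 2.89 there, against 1.37 in the labelled triple mutant and 0.39 in hpl-1; hpl-2). Without that genotype the log2 difference of hsp-70 was 0.88. It was 1.498, just short of the threshold, when replicate 1 of the arrays labelled hpl-1 his-24 was left out. hsp-12.6 and hsp-12.3, small heat shock genes of another branch, went the other way. hsp-12.6 read -1.60 and -1.44 against -6.40 to -4.25 (11.5-fold lower), and hsp-12.3 was 5.55-fold lower. No gene of the endoplasmic reticulum chaperone and unfolded protein response list (17 tested), the mitochondrial chaperones (5) or the superoxide dismutases and catalases (8) was called.

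Among genes that act with HPL-2 in chromatin, higher values were common but mostly by small amounts, and 1 gene was called. Of 17 synMuv B repressors and H3K9 methyltransferases, 9 lay above without overlap (52.9%, beside 22.8% of all genes). The 1 below was the deleted gene hpl-2 itself, which the list includes. The median log2 difference was 0.28, but only lin-15B was called. It read -1.55 and -1.59 on arrays labelled hpl-1 his-24, 0.87 and 0.58 on hpl-2; his-24, 0.65 and 0.52 on hpl-1; hpl-2, and 0.12 and 0.37 on the labelled triple mutant (4.26-fold, SE 0.11, adjusted p = 2.6e-05). Its neighbour lin-15A, a synMuv A gene transcribed from the same locus, was 4.52-fold higher, with -0.85 and -0.89 against 0.98 to 1.67. lin-13 and lin-35 lay above without overlap at log2 differences of 0.64 and 0.51.

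Among 22 argonaute genes, which bind small RNAs, 9 lay above without overlap (40.9%, beside 22.8% of all genes) and 0 below. Only vsra-1 was called (4.55%, beside 4.94% of all genes). It read -0.26 and -0.29 on arrays labelled hpl-1 his-24 and 1.45 to 2.25 on the 6 hpl-2 arrays (4.02-fold, SE 0.09). Of 12 P granule and MES genes, which mark and protect the germ line, 0 were called, and the median log2 difference was 0.30. Without overlap, 7 lay above (58.3%, beside 22.8% of all genes) and 1 below (8.33%, beside 19.2%). The 10 oocyte and early embryo markers had a median of 0.19 with 0 called.

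The Hox genes and the other linker histones stayed under the threshold of a call. nob-1, a posterior Hox gene, read -1.61 and -1.59 on arrays labelled hpl-1 his-24, -3.51 and -3.51 on hpl-2; his-24, -2.55 and -2.60 on hpl-1; hpl-2, and -2.45 and -2.42 on the labelled triple mutant. It was lower without overlap (log2 difference -1.24, SE 0.07, adjusted p = 2.5e-05), as was its neighbour php-3 (-0.93, SE 0.15). ceh-13, the anterior Hox gene, was higher without overlap (0.62, SE 0.09). In mab-5, egl-5 and lin-39 the sides overlapped, with log2 differences of -0.16, -0.12 and 0.17 and adjusted p values of 0.39, 0.47 and 0.11. Of the other linker histones, hil-7 lay above without overlap (1.08, SE 0.17), and the sides overlapped in the rest.

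The 12 lower genes with the widest gaps included the collagen gene col-164, the hedgehog-related genes grl-17 and grl-3 and the lipase gene lipl-3. Y38E10A.9 (chromosome II) read 0.15 and 0.40 on arrays labelled hpl-1 his-24, -6.60 and -6.53 on hpl-2; his-24, -5.02 and -4.83 on hpl-1; hpl-2, and -5.36 and -5.70 on the labelled triple mutant. All 6 hpl-2 arrays were lower by at least 4.98 log2 units (61.9-fold, SE 0.12, adjusted p = 1.4e-06). The hedgehog-related gene grl-17 read -0.30 and -0.37 against -6.69 to -5.14 (39.2-fold lower), and grl-3 was 13.7-fold lower. Y67D8C.6, T19H12.6, F46B3.1, F46B3.2, R05G6.1 and K03H6.4 were 49.2-fold, 31.2-fold, 30.3-fold, 20.5-fold, 16.1-fold and 15.3-fold lower, and the C-type lectin gene clec-14 was lower by 3.46 on the log2 scale. Among genes not well above background on any hpl-2 array, the bounds were largest for the collagen gene col-163 (at least 44.1-fold lower), T05B4.13 (at least 14.7-fold) and C03G6.6 (at least 13.5-fold).

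Collagens, the main proteins of the cuticle, made up the largest group of lower calls. Of 163 tested, 56 were called lower (34.4%, beside 3.94% of all genes) and 3 higher (1.84%, beside 4.94%). All 6 hpl-2 values lay below the other side in 93 (57.1%, beside 19.2% of all genes) and above in 5 (3.07%, beside 22.8%). The median log2 difference was -1.18. By genotype, the median was -2.18 in hpl-2; his-24, and it was smaller in the labelled triple mutant (-0.42) and in hpl-1; hpl-2 (-0.99). Without hpl-2; his-24, 28 were called lower (17.2%, beside 2.54% of all genes) and the median was -0.68. With the 6 hpl-2 arrays as a single group, 20 were called lower. col-164 read 0.70 and 0.75 on arrays labelled hpl-1 his-24, -5.42 and -5.42 on hpl-2; his-24, -5.29 and -5.16 on hpl-1; hpl-2, and -2.25 and -2.19 on the labelled triple mutant. It was 32.4-fold lower on average (SE 0.07, adjusted p = 1.0e-06), with the labelled triple mutant between the other groups. col-102 and col-2 had the same order of genotypes (27.3-fold and 20.2-fold lower).

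Collagens are made in waves that follow the moults, and the labels give more than 1 stage, so markers of the adult cuticle were set beside them. Of 4 such markers tested, bli-1 and bli-2 were called lower and col-7 and col-19 were not, and 0 were called without hpl-2; his-24. bli-1 read -1.35 and -1.23 on arrays labelled hpl-1 his-24, -7.28 and -6.77 on hpl-2; his-24, -1.72 and -1.78 on hpl-1; hpl-2, and -0.63 and -0.44 on the labelled triple mutant, so its difference lay almost wholly in hpl-2; his-24. bli-2 followed the same pattern, at -5.42 and -4.89 in hpl-2; his-24 against -0.98 to 0.13 on the other hpl-2 arrays. col-19, an adult collagen, read 6.18 and 5.99 on arrays labelled hpl-1 his-24 and 4.89 to 6.05 on the 6 hpl-2 arrays (adjusted p = 0.086). The summed level of the 4 markers was 6.63 to 6.84 on arrays labelled hpl-1 his-24 and 6.09 to 6.72 on the others. Of 12 moulting genes, a list added after the collagens were seen, 0 were called (median -0.51). Without overlap, 5 lay below (41.7%, beside 19.2% of all genes). The part of stage in the collagen values was not tested.

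Other genes of the epidermis and cuticle went the same way. Hedgehog-related genes encode secreted proteins made mostly by epidermal and other cuticle-forming cells. Of 54 tested, 19 were called lower (35.2%, beside 3.94% of all genes) and 1 higher (1.85%, beside 4.94%). Without overlap, 30 lay below (55.6%, beside 19.2% of all genes) and 1 above (1.85%, beside 22.8%), with a median of -1.32. The genotype medians had the order seen in the collagens, at -2.10 in hpl-2; his-24, -0.45 in the labelled triple mutant and -1.31 in hpl-1; hpl-2, and 13 were called lower without hpl-2; his-24 and 7 with the hpl-2 arrays as a single group. grl-19 read -1.10 and -0.95 on arrays labelled hpl-1 his-24 and -9.52 to -5.99 on the 6 hpl-2 arrays. It was called lower, but only 2 of the 6 hpl-2 arrays were well above background, so no exact fold is given. Of 28 astacin metalloproteases, some of which digest the old cuticle, 6 were called lower (21.4%, beside 3.94% of all genes) and 0 higher. Only 3 were called lower without hpl-2; his-24 (10.7%, beside 2.54% of all genes) and 2 with the normexp correction. Of 19 epidermal antimicrobial peptide genes 2, cnc-1 and nlp-32, were called lower (10.5%, beside 3.94% of all genes), both near background on the hpl-2 arrays. Without hpl-2; his-24, 3 were called lower (15.8%, beside 2.54% of all genes). Of 4 general epidermal markers 0 were called (median -0.13).

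**Figure D5:**
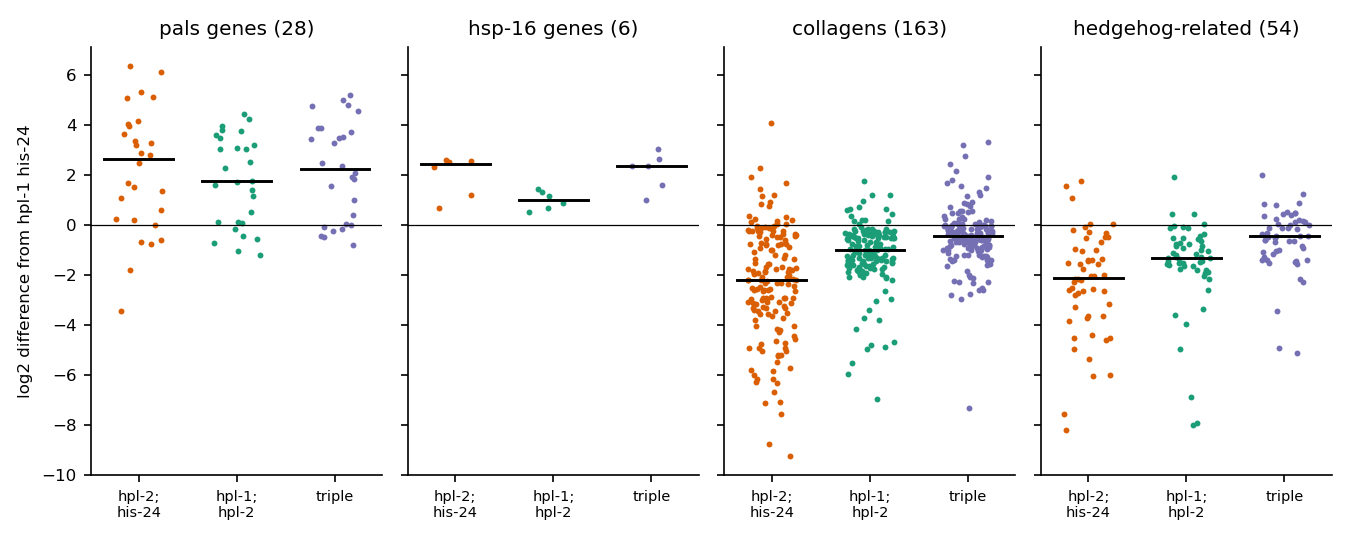
Log2 difference of each hpl-2 genotype from the arrays labelled hpl-1 his-24 (y axis), 1 point per tested gene and a bar at the median, for the pals genes, the hsp-16 genes, the collagens and the hedgehog-related genes. The 3 differences share the same 2 reference arrays. From hpl-2; his-24 over hpl-1; hpl-2 to the triple, the pals medians are 2.65, 1.76 and 2.24, and the collagen medians -2.18, -0.99 and -0.42.

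A number of genes of fat breakdown and fatty acid desaturation were lower on the hpl-2 arrays. Of 20 lipase genes, 7 were called lower (35%, beside 3.94% of all genes) and 1 higher (5%, beside 4.94%). Without overlap, 13 lay below (65%, beside 19.2% of all genes) and 1 above (5%, beside 22.8%), with a median of -1.17. lipl-3, a lysosomal lipase known to be induced by fasting, read 1.5 and 1.53 on arrays labelled hpl-1 his-24, -4.31 and -4.72 on hpl-2; his-24, -2.70 and -2.73 on hpl-1; hpl-2, and -5.04 and -4.62 on the labelled triple mutant (46.4-fold lower, SE 0.15, adjusted p = 2.4e-06). lipl-2 was 5.12-fold lower. lips-8 read -4.42 and -4.44 against -8.57 to -6.88 and was also called, but only 3 of the 6 hpl-2 arrays were well above background, so no exact fold is given. lips-11 was the exception, with -5.75 and -5.44 against -3.52 to 1.37 (20.2-fold higher).

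fat-7, a stearoyl-CoA desaturase, read -1.38 and -1.34 against -4.56 and -3.95, -4.09 and -4.23, and -3.92 and -3.96 (6.76-fold lower, SE 0.16, adjusted p = 3.1e-05), and the 3 hpl-2 genotypes did not differ by the F test (adjusted p = 0.35). fat-3, a desaturase of polyunsaturated fatty acids, was 2.96-fold lower without overlap, a call that was lost with quantile normalization (log2 difference -1.21). Of 56 genes of fatty acid activation and oxidation, 5 were called lower (8.93%, beside 3.94% of all genes) and 0 higher. Without overlap, 21 lay below (37.5%, beside 19.2% of all genes) against 2 above (median -0.37). acs-2, an acyl-CoA synthetase induced by fasting, read 4.41 and 4.35 on arrays labelled hpl-1 his-24 and -3.53 to 1.62 on the hpl-2 arrays, with replicates of hpl-2; his-24 at 0.50 and -3.53 (log2 difference -4.63, SE 0.92). acox-1.2 was 6.21-fold lower. acdh-1 was called lower through a log2 difference of -5.89 in hpl-2; his-24 and -2.70 in the labelled triple mutant, whereas that in hpl-1; hpl-2 was -0.37 (adjusted p = 0.25). far-7, which encodes a lipid-binding protein, was 6.37-fold lower. lbp-8, which encodes another, was called lower but well above background on only 2 of the 6 hpl-2 arrays, and on hpl-1; hpl-2 its log2 difference was -0.35 (adjusted p = 0.33). The 7 intestine markers, from the tissue in which many of these genes are expressed, had a median of -0.70, with 0 called. Of these markers, 5 lay below without overlap (71.4%, beside 19.2% of all genes). Their summed level was 6.91 to 7.01 on arrays labelled hpl-1 his-24 and 6.29 to 6.78 on the others, and its part in these results was not tested.

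Lysozymes and saposin-like proteins act against bacteria. Of 36 lysozyme and saposin genes, 7 were called lower (19.4%, beside 3.94% of all genes) and 1 higher (2.78%, beside 4.94%). Without hpl-2; his-24 the counts were 7 and 0, and with the hpl-2 arrays as a single group 3 were called lower. The neighbours lys-4, lys-5 and lys-6 on chromosome IV had nearly the same log2 difference (-3.46, -3.42 and -3.46). lys-4 read 4.53 and 4.70 on arrays labelled hpl-1 his-24, -0.40 and -0.02 on hpl-2; his-24, 2.88 and 3.19 on hpl-1; hpl-2, and 0.69 and 0.56 on the labelled triple mutant, with hpl-1; hpl-2 nearest to the other side. ilys-3, an invertebrate-type lysozyme, was 11.1-fold lower.

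C-type lectins, secreted or membrane proteins that often respond to microbes, were called in both directions. Of 180 tested, 33 were called lower (18.3%, beside 3.94% of all genes) and 15 higher (8.33%, beside 4.94%), or 22 and 14 without hpl-2; his-24. clec-190 read -0.71 and -0.62 on arrays labelled hpl-1 his-24 and 2.74 to 4.41 on the 6 hpl-2 arrays (19.7-fold higher). clec-206 was called lower with signals of -10.25 to -8.75 on 4 hpl-2 arrays, most of them not well above background, so no exact fold is given. Its values on hpl-1; hpl-2, -2.90 and -2.83, lay near the -2.01 and -2.13 of the arrays labelled hpl-1 his-24. Of 73 cytochrome P450 genes, 9 were called lower and 1 higher, among them cyp-35B2 (log2 difference -3.62). The metallothionein mtl-1 read 3.52 and 3.73 against -1.06 to 0.78 (16.3-fold lower), and mtl-2 was lower without overlap by 1.03 on the log2 scale. Of 46 glutathione S-transferases 1, gst-19, was called lower (13.3-fold) and 1, gst-25, higher, the latter well above background on only 1 of the arrays labelled hpl-1 his-24. Each is 2.17% of this list, under the 3.94% lower and 4.94% higher of all genes. Without hpl-2; his-24, 3 were called higher and 1 lower.

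Of 93 neuropeptide genes, 7 were called lower (7.53%, beside 3.94% of all genes) and 2 higher, and 40 lay below without overlap against 6 above (median -0.37), beside a median of -0.34 and 4 of 7 below for the neuron markers. Of 24 insulin-like genes 2, ins-7 and ins-8, were called higher (8.33%, beside 4.94% of all genes) and 1, ins-31, lower. ins-7 read -1.08 and -0.95 on arrays labelled hpl-1 his-24 and 0.34 to 1.94 on the hpl-2 arrays (4.60-fold higher). ins-8 was at least 3.27-fold higher, a bound, since neither array labelled hpl-1 his-24 was well above background. ins-31 read -3.05 and -3.11 on arrays labelled hpl-1 his-24, -1.27 and -1.32 on the labelled triple mutant, and -10.09 to -8.67 on the other 4 hpl-2 arrays, so the genotypes lay on opposite sides. Among 210 nuclear hormone receptors 10 were called lower (4.76%, beside 3.94% of all genes) and 5 higher (2.38%, beside 4.94%). Without hpl-2; his-24 the counts were 5 and 4, and with the normexp correction 6 and 0. Of 75 cytosolic ribosomal protein genes 0 were called, although 22 lay below without overlap (29.3%, beside 19.2% of all genes) and 0 above (median -0.31). No core histone (39 tested), yolk protein gene (6), major sperm protein gene (26), sperm marker (6) or muscle marker (4) was called.

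Called genes often lay next to each other. Of 735 called higher genes without overlap that could be placed in the order of the reference annotation, 258 (35.1%) had an immediate neighbour among the tested genes that was called in the same direction, and 8.64% of all placed genes had such a neighbour. For lower genes the count was 150 of 550 (27.3%, beside 6.71%). Runs of 3 or more adjacent called genes numbered 27 in the higher and 14 in the lower direction, with 106 and 52 genes. Neighbours in these runs are often members of the same family, so the probes may share targets.

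The longest higher run, of 8 genes on chromosome I, was C17H1.2, pals-2, pals-3, pals-4, pals-8, pals-7, pals-5 and pals-6, with log2 differences of 2.24 to 5.02. A run of 7 genes on chromosome V contained B0507.6, B0507.5, B0507.4, B0507.7, ddn-1, B0507.8 and B0507.9. Within it, B0507.8 read -2.12 and -2.30 on arrays labelled hpl-1 his-24 and 1.29 to 2.67 on the 6 hpl-2 arrays (16.1-fold higher), and ddn-1 was 11.5-fold higher. Further runs held math-16 to math-8 on chromosome II (6 genes), abf-4 with the F26F2 genes (6), lin-15B and lin-15A with ZK662.5, nhr-255 and srxa-9 on X (5), and the Skp1 relatives skr-13, skr-9, skr-8 and skr-12 on IV (4). skr-8 read -0.84 and -0.64 against 0.73 to 1.98 (4.49-fold). The longest lower run, of 12 genes on chromosome V, reached from C13A2.9 to F07G11.1 and included 5 gtnt genes, with log2 differences of -6.12 to -1.61. Others held pud-3, pud-4, pud-2.1 and pud-1.1 (4 genes), the lysozymes named above, F46B3.1 with F46B3.2 and col-163, and sets of neighbouring asp and col genes. By chromosome, the share called higher ran from 3.06% on III to 6.90% on II, and the share called lower from 1.51% on III to 6.80% on V.

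Although the 3 genotypes share the hpl-2 label, they differed among themselves in most genes. The F test among them, which does not use the arrays labelled hpl-1 his-24 except for the spread, passed in 10352 genes (62.8%). It passed in 54.9% of the higher genes without overlap, 58.9% of the lower ones and 67.2% of the overlapping ones. Among those also called it passed in 72.3% of the higher and 86.9% of the lower genes. Of the 559 called lower genes without overlap, 437 were lowest in hpl-2; his-24, and the median log2 difference was -3.02 there, -1.66 in the labelled triple mutant and -1.75 in hpl-1; hpl-2. The called higher genes were more even, with medians of 2.38, 2.09 and 2.26.

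The called genes with the smallest p of the F test show how unequal the genotypes can be. The collagen gene col-81 read 3.92 and 3.92 on arrays labelled hpl-1 his-24, -5.0 and -4.70 on hpl-2; his-24, 1.93 and 2.00 on hpl-1; hpl-2, and 2.51 and 2.44 on the labelled triple mutant, all lower without overlap but far lower in hpl-2; his-24. col-110 followed the same order with smaller differences. The neuropeptide gene nlp-4 read -5.17 and -5.04 against 0.41 and 0.43, -2.83 and -2.73, and 0.80 and 0.62, and was the one gene of the 4 named by this test among the higher calls whose sides did not overlap.

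The remaining genes named by the F test were called on average although 1 genotype did not join the other two. C07G1.7 and the C-type lectin gene clec-12 were high in hpl-2; his-24 and the labelled triple mutant only. clec-12 read -2.55 and -2.46 on arrays labelled hpl-1 his-24 and -2.93 and -2.83 on hpl-1; hpl-2, against 1.82 to 2.01 on the other hpl-2 arrays. hrg-11.3 was low in the labelled triple mutant, at -0.86 and -0.60, against 3.62 to 4.26 on the other hpl-2 arrays. The cytochrome P450 gene cyp-35A4 read 1.39 and 1.35 on arrays labelled hpl-1 his-24, -5.34 and -5.40 on hpl-2; his-24, 2.22 and 2.23 on hpl-1; hpl-2, and -1.81 and -1.67 on the labelled triple mutant. The collagen gene col-60 was low in hpl-2; his-24, at -4.92 on both arrays, and lay at 1.73 and 1.81 on the labelled triple mutant, beside 1.75 and 1.78 on arrays labelled hpl-1 his-24.

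Where the genotypes differ this much, a call depends on whether the spread between them counts as error. With the 6 hpl-2 arrays as a single group, hsp-16.1, hsp-70, lips-11, acdh-1, lbp-8, lys-4, lys-6, clec-206, bli-1 and bli-2 were no longer called, and among the genes named by the F test only nlp-4 remained called. The calls of cyp-35A4, col-60, col-110, bli-1, bli-2 and hsp-70 were lost without hpl-2; his-24, and those of fat-3 and C07G1.7 without the labelled triple mutant. The dim genes nlp-32, gst-25 and math-16 lost their calls with the normexp correction and with the deposited normalized values.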

How the data were processed

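Total RNA of whole Caenorhabditis elegans was labelled with Cy3 and hybridized to 8 one-colour Agilent arrays, 2 per genotype, on 5 slides. The deposited scanner files, written by Agilent Feature Extraction 9.5.3.1, hold background-subtracted spot intensity values (processed signal) made by the authors' scanner software. The authors also deposited a table of log2 values, quantile-normalized, which served as an alternative. Its scale and direction were found from the scanner files, since its columns rise with the brightness of their own arrays, and no column was left unused.

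Control spots and outlier spots were left out. The log2 signal was taken relative to the 75th percentile of each array, spots of a probe were averaged, and the brightest probe stood for an identifier. Of 20401 probes on 19441 genes, 17092 identifiers of 16487 genes were tested, namely those detected well above background by both arrays of some genotype. For a gene with several identifiers, the one with the highest mean was counted. limma 3.58.1 in R 4.3.3 was fitted with 1 mean per genotype, a contrast of the mean of the 3 hpl-2 genotypes with hpl-1 his-24, an F test among the 3, and Benjamini-Hochberg adjustment over all identifiers. The test was two-sided, and a call needed an adjusted p below 0.05 and a log2 difference beyond 1.5. The script was tested on simulated data with known changes. An exact permutation test of 6 against 2 arrays cannot go below 0.0714, so none was used. Only 2 arrays per genotype limit the precision. The study calls the duplicates biological.

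For a gene undetected on every array of a side, the fold is a bound against, per array, the higher of its own signal and the lowest signal counted as well above background. Named genes were the deleted genes, the 12 with the widest gap and the 3 with the largest bound in each direction, up to 4 called genes of each list, the 4 called genes per direction with the smallest p of the F test, the Hox genes and the linker histones. lin-13, lin-15A, lin-35, pals-22, pals-25, skr-3, skr-4, cul-6, bli-1, bli-2, col-19, mtl-2 and further genes of runs were named after their values were seen. The members and the lists were chosen with earlier results of these data known. The lists of other pathogen response genes, moulting genes and metallothioneins were added later. Names and gene order came from the WBcel235 annotation, in which 18124 genes matched. The genome build of the probes is not given in the sources used here, so no coordinates or sequences are printed. Alternatives changed the normalization, scaling, background correction, filter, probe summary, threshold, groups, weights and blocks, and left out arrays and genotypes.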

Additional observations from a re-analysis of the deposited data

Results flagged for a closer look

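The values below stand out because the 3 hpl-2 genotypes differed strongly among themselves in limma's F test, at an adjusted p under 0.001. This held for 13 of the 38 genes named for their gap, their bound or this test, and 33 of the 38 passed at 0.05. For 8 of them a small p in this test was the reason for naming, so it is a description.

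The collagen gene col-60 (adjusted p = 8.9e-07), the cytochrome P450 gene cyp-35A4 (8.9e-07) and the collagen genes col-81 (1.6e-06) and col-110 (2.0e-06) were far lower in hpl-2; his-24 than in the other hpl-2 genotypes. C07G1.7 (2.0e-06) and clec-12 (3.5e-06) were not raised in hpl-1; hpl-2, and the neuropeptide gene nlp-4 (1.1e-05) was raised less there. hrg-11.3 (1.0e-05) was not raised in the labelled triple mutant. col-164 (9.8e-06) was lower in all 3, least so in the labelled triple mutant. T05B4.13 (0.00050), lipl-3 (0.00052) and Y38E10A.9 (0.00087) were low in all 3 genotypes by unequal amounts, and T05B4.13 was not well above background in any of them. gcy-19 (0.00073) was highest in hpl-2; his-24. The slide of hpl-2; his-24 cannot be told apart from its genotype.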

How the results depend on the processing

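Called counts depended on how dim signals were treated. The 814 higher genes became 364 with normexp background correction, 368 with the deposited normalized values and 427 where all 8 arrays were well above background, and 363, 354 and 427 of the 814 were called in these. The 649 lower genes became 399 with the deposited values, 419 without hpl-2; his-24 (363 of the 649) and 298 with the 6 hpl-2 arrays as a single group. Adjusted p alone gave 4659 higher and 3962 lower, and a log2 limit of 1 gave 1435 and 1341. The share of calls that were higher was 55.6%, 45.0% with normexp, 65.1% without hpl-2; his-24 and 70.5% with a single group. Leaving out 1 array gave 787 to 837 higher and 591 to 744 lower genes, 3852 to 4688 genes above and 3230 to 3705 below without overlap, and 7712 to 10711 genes in the F test. Without hpl-2; his-24, bli-1 turned to 0.15, and without hpl-1; hpl-2, his-24 turned to -0.94. Replicate numbers did not pair the samples (correlations of deviations from -0.30 to 0.18), and with a replicate block 814 and 645 genes were called and the F test passed in 9591. Of 122 named genes, 12 were no longer called with normexp, 17 with the deposited values, 13 without hpl-2; his-24 and 33 with a single group. None lost its call with array weights or with slide as a random block. The slide block cannot separate slide from the comparison, since no slide held arrays of both sides, and its correlation within slides was -0.23. Array weights, slide as a random block, scaling by the median, quantile normalization, no filter and averaged probes kept every count within 1.5 times. Beyond the constructions named, the cause of these shifts was not tested.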

Other observations

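Some lists were not described above. Of 47 transthyretin-related genes, 2 were called higher and 1 lower, or 3 and 1 without hpl-2; his-24. Of 62 UDP-glucuronosyltransferases, 1 was called higher and 2 lower, or 1 and 1 without that genotype. Of 9 dod genes, named for their response to the insulin receptor pathway, 1 was called higher and 1 lower (11.1% each). The shares over all genes were 4.94% higher and 3.94% lower.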
